A study of Mus musculus with 12 samples.

Results

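The transcripts of 10 receptors were followed in MLL-AF9 leukemic blasts, out of 24454 genes measured. They are Il6ra and Il6st, the receptor of IL-6, Csf1r and Csf3r, the receptors of M-CSF and G-CSF, Csf2ra, Il3ra, Csf2rb and Csf2rb2, the chains of the GM-CSF and IL-3 receptors, and the receptor tyrosine kinases Kit and Flt3. They were chosen by gene symbol as the receptors through which myeloid growth factors and IL-6 act, and all 10 passed the filter on low values, a mean of at least 10 normalized counts. A normalized count is the number of reads on a gene divided by the size factor of its library.

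Fetal liver cells of wildtype (WT) or STAT3β-deficient (Δβ) mice, which lack the shorter of the main STAT3 isoforms, had been transformed with a retrovirus that encodes MLL-AF9 together with the fluorophore Venus. The cells were transplanted intravenously into male immunocompromised NSG mice, a strain without functional T, B and NK cells but with its own stroma and myeloid cells. Venus+ blasts were sorted from spleen (SP) and bone marrow (BM) of diseased animals, and poly-A enriched RNA was sequenced in 3 libraries for each genotype and organ, 12 in all. MLL-AF9 and the retroviral transformation were shared by every group, the host mice carried normal Stat3, and the age of the animals at sorting was not given in the labels.

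IL-6 binds the IL-6 receptor alpha chain, and the complex recruits gp130, the signaling chain that IL-6 shares with its relatives and from which STAT3 is phosphorylated by Janus kinases. GM-CSF, IL-3 and IL-5 each have a binding chain of their own and share the beta common chain. Mice carry an additional, IL-3 specific beta chain. M-CSF, stem cell factor and FLT3 ligand act on the receptor tyrosine kinases CSF1R, KIT and FLT3, of which KIT and FLT3 mark hematopoietic progenitors and CSF1R the monocyte lineage. The G-CSF receptor, a cytokine receptor without a kinase domain, marks the neutrophil lineage.

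Promoter sequence is shown for 4 receptors: Il6ra and Csf2ra, which passed a test once a deviating library was left out, Csf3r, the receptor with the smallest p in SP, and Csf2rb2, the receptor with a STAT motif. The sequences are from RefSeq on GRCm38.p6, run 5′ to 3′ on the strand of the gene and end at the annotated start, except that the Csf3r sequence stops after 141 of its 250 bases, where the GENCODE gene begins, and that the last 11 bases of Csf2ra lie within its gene. Capitals mark the motif letters on either strand, and in Csf2ra the capitals hold a pair of adjoining matches.
Il6ra (chr3:89913197-89913446, minus strand): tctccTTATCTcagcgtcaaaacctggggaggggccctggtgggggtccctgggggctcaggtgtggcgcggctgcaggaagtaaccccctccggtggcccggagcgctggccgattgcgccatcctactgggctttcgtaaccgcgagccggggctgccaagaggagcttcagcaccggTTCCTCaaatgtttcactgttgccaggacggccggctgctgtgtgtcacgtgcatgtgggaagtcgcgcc
Csf3r (chr4:126024409-126024549, plus strand): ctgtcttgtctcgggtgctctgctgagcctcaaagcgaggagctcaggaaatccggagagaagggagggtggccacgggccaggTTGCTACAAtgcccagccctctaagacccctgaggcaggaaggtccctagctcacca
Csf2rb2 (chr15:78305722-78305971, minus strand): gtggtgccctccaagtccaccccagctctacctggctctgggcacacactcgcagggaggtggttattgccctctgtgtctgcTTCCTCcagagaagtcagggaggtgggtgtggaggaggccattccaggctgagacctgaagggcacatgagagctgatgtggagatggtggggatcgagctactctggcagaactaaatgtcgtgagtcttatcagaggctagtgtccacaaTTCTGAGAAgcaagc
Csf2ra (chr19:61228419-61228668, minus strand): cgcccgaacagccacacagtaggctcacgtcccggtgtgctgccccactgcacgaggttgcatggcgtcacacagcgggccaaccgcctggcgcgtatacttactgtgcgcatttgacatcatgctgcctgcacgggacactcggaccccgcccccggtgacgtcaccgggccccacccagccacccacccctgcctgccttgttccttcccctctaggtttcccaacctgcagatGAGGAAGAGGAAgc
The motifs searched on both strands of the 250 bases were TTCNNNGAA for STATs, TTGCNNCAA for C/EBP, GAGGAA for the core of PU.1 sites, TGTGGT for RUNX and AGATAA for GATA factors, none of which overlapped another within these promoters. Promoter sequence was matched for 8 of the 10 receptors. The STAT motif was found in 1 of 8, Csf2rb2, and in 8.13% of 27025 genes. The C/EBP motif was found in Csf3r alone and in 1.98% of genes, the PU.1 core in 5 of 8 (Il6ra, Csf2ra, Csf2rb2, Csf3r and Kit) and in 25.9% of genes, and the GATA motif in Il6ra alone and in 11.4% of genes. The RUNX motif was found in 0 of 8 and in 15.9% of genes. A match describes letters only, and binding was not measured.

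The libraries held 9001051 to 13859727 reads assigned to genes. WT SP replicate 3 had the largest root mean square deviation on the log2 scale from the others of its group, at 0.917. WT SP replicate 1 came next with 0.824, and the other libraries had 0.488 to 0.743. Replicate 3 had normalized counts of 40587 for Mpo and 72724 for Elane, granule genes of early myeloid cells. WT SP replicates 1 and 2 had 5947 and 5256 for Mpo and 12215 and 14208 for Elane. The Mpo value of replicate 3 lay within those of the Δβ libraries, 25775 to 53209 in SP and 24214 to 41895 in BM. Its Elane value was the highest of the 12 libraries. The receptor differences between the genotypes in SP are therefore given with and without replicate 3, and for several receptors without replicate 1. All 9 genes of the leukemic myeloid progenitor list (Ptprc, Itgam, Hoxa9, Hoxa10, Meis1, Mpo, Elane, Ctsg and Cd34) were measured in every library. Since the host keeps its own myeloid cells, their presence does not tell blasts from host myeloid cells. The globin genes Hba-a1, Hbb-bs and Hbb-bt were at 0 in every library. Stat3, in which reads of the α and β isoforms are not separated, ranged from 2977 to 4429.8 normalized counts in the WT and from 2674 to 3236 in the Δβ blasts of SP, and from 2714 to 3201 and from 2349 to 3228 in those of BM. In bulk RNA a smaller number of cells of a type and less RNA per cell cannot be told apart. The labels do not say that the libraries of a group came from separate mice, so p-values measure the spread between these libraries, which may be technical.

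Every receptor was expressed in all 12 libraries, from 169 reads for Il3ra to 14580 reads for Csf1r. Per kilobase of transcript, Csf2ra was the highest, with 2943 ± 577 normalized counts per kb (SD, n = 12), and Il6st, which encodes gp130, the lowest with 65.8 ± 26.8. Between them, in falling order, lay Csf1r with 1293 ± 1059, Csf2rb with 715 ± 147, Il6ra with 619 ± 295, Csf3r with 514 ± 135, Il3ra with 339.7 ± 120.0, Csf2rb2 with 175 ± 43.6, Kit with 164 ± 76.0 and Flt3 with 132 ± 68.8. The ranges of neighbours in this order overlapped over the 12 libraries in every case, so only the wide steps of the order are beyond the spread. Within WT BM the order had gaps between Csf2ra and Csf1r, between Il6ra and Csf3r and between Il3ra and Kit. The place of Il6ra depends on its transcript: with the longest coding transcript of 8639 bases in place of the RefSeq one of 3343 bases its mean fell to 239.7 per kb.

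**Figure D1:**
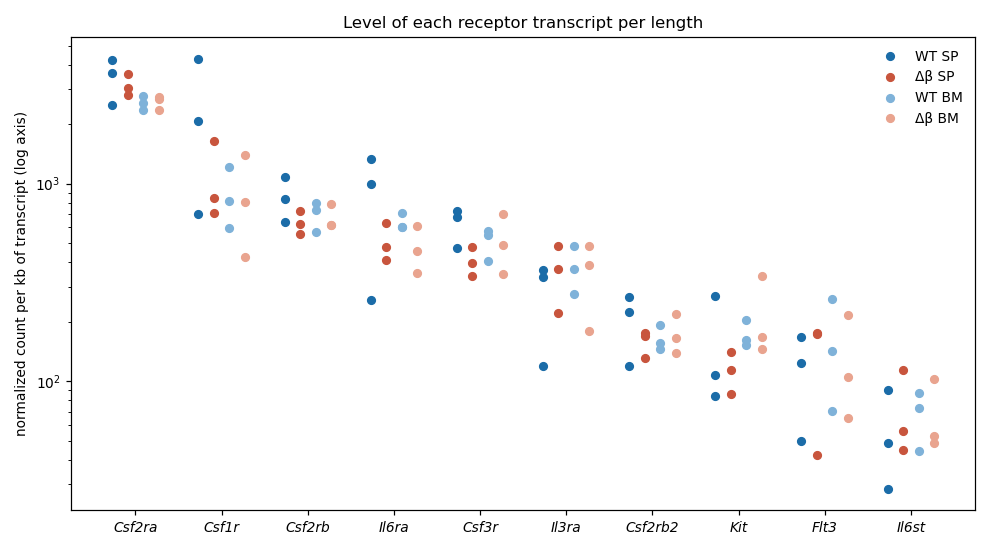
Normalized counts per kb of transcript (log axis) of each receptor in the 12 libraries, ordered by the mean, with 1 point per library colored by group. Csf2ra lies on top with a mean of 2943 and Il6st at the bottom with 65.8, and the points of neighboring receptors overlap.

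The question of the genotype comparison was whether blasts that lack STAT3β carry different amounts of these receptors. No receptor passed an adjusted p of 0.05 in SP or in BM (0 of 10 in each, limma with Benjamini-Hochberg adjustment over 11476 genes), where 0.105% of the tested genes passed in SP and 0.0697% in BM. In SP, 7 of 10 receptors had a negative log2 difference (Δβ minus WT), against 51.9% of all tested genes, with a median of -0.28 against -0.01. In BM it was also 7 of 10, against 54.7%, with a median of -0.04 against -0.02. In SP 1 receptor had an unadjusted p under 0.05, against 14.9% of all tested genes, and 0 did so in BM, against 2.59%. The 3 WT and 3 Δβ values overlapped for all 10 receptors in both organs, whereas they did not overlap for 17.3% of the tested genes in SP and for 7.63% in BM.

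**Figure D2:**
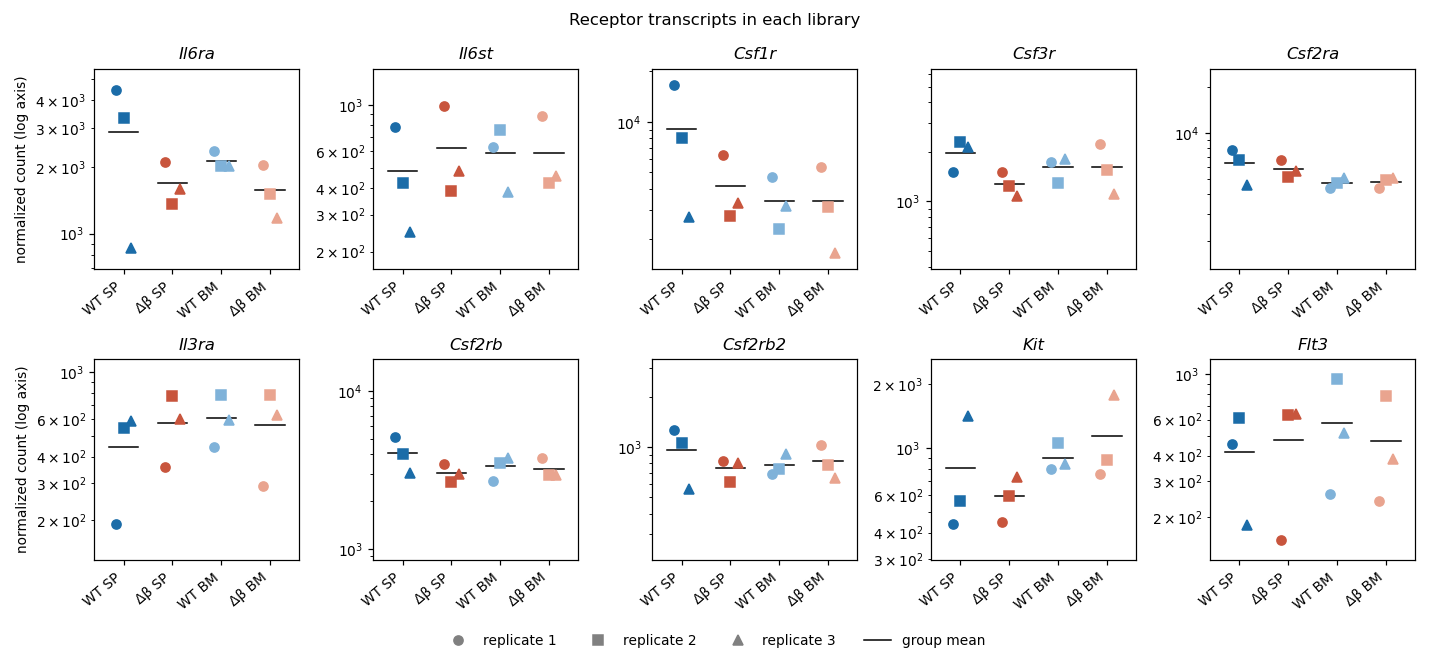
Normalized counts (log axis) of each receptor in WT SP, Δβ SP, WT BM and Δβ BM, with 1 point per library, a symbol for each replicate number and a line at the group mean. WT and Δβ overlap in every panel and organ, WT SP replicate 3 lies at the bottom of its group for Il6ra (861), Csf1r (2719) and Csf2rb2 (564) and at the top for Kit (1413), and replicate 1 has the lowest Il3ra value of every group.

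Il6ra encodes the chain that binds IL-6 (RefSeq NM_010559, chromosome 3 from 89864059 to 89913196 on the minus strand, GRCm38, 10 exons). WT SP replicates 1 to 3 had normalized counts of 4463, 3320.5 and 861, and the Δβ SP replicates had 2102, 1367 and 1596. The Δβ values lay between those of the WT libraries, of which replicate 3 was lower than any Δβ library. Their log2 difference was -0.49 with a 95% interval of -1.56 to 0.58 (adjusted p = 0.616, limma). Without WT SP replicate 3 both remaining WT values were above all 3 Δβ values, and Il6ra was lower in Δβ at a log2 difference of -1.21 ± 0.24 (SE), or 0.432 of the WT level, with an adjusted p of 0.0147 from limma. It was then the single receptor of 10 to pass, among 1886 genes (16.4%) that passed in that refit. In that refit Csf1r, Csf2ra, Csf2rb, Csf2rb2 and Il6ra did not overlap between the genotypes, nor did 55.1% of the tested genes. The log2 difference was -0.025 when WT SP replicate 1, the library with the highest Il6ra value, was left out in its place. In BM it had 2370.5, 2017 and 2014 in WT and 2043, 1517 and 1179.8 in Δβ. The log2 difference in BM was -0.47, with an interval of -1.53 to 0.60 (adjusted p = 0.99997, limma). A single Δβ library, replicate 1, overlapped WT in BM.

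Il6st encodes gp130 (NM_010560, chromosome 13 from 112464070 to 112510086 on the plus strand, 17 exons). Normalized counts were 779.5, 422 and 248 in WT SP, 988, 389.8 and 484 in Δβ SP, 632, 759 and 383 in WT BM and 886, 424 and 456 in Δβ BM. Replicate 1 was the highest in each group except WT BM, and the genotypes overlapped in both organs. The log2 difference was 0.40 in SP, with an interval of -0.65 to 1.44, and -0.03 in BM, with an interval of -1.08 to 1.01, and the SP value was -0.0057 without WT SP replicate 3. The ratio of Il6ra to Il6st normalized counts was 5.73, 7.87 and 3.48 in WT SP and 2.13, 3.51 and 3.30 in Δβ SP, which overlapped through WT SP replicate 3 alone. The exact two-sided permutation test of this ratio gave p = 0.2 in SP and 0.2 in BM.

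Csf1r encodes the receptor of M-CSF and IL-34 (NM_001037859, chromosome 18, plus strand, 22 exons). It had the widest spread of the 10 receptors, and its normalized counts were 16616, 8024 and 2719 in WT SP and 6355, 2751 and 3277 in Δβ SP. The WT replicates differed by 6.11 times, and their lowest value lay under all Δβ values. On the log2 scale Δβ minus WT was -0.89, with an interval of -2.26 to 0.49 (adjusted p = 0.490, limma). Without WT SP replicate 3 it was -1.58 ± 0.53 (SE) with no overlap, at an adjusted p of 0.0661 from limma, and without WT SP replicate 1 it was -0.28. Of the 7 monocyte and macrophage markers, 6 were lower in Δβ SP, among them the fractalkine receptor gene Cx3cr1 with a log2 difference of -1.78, and 0 passed an adjusted p of 0.05 (limma). The sum of the 7 was 15536 to 30782 in WT SP and 14952 to 25814 in Δβ SP, and its part in the Csf1r values was not tested. The complement genes C1qa, C1qb and C1qc, which mark resident macrophages, were highest in WT SP replicate 1, at 14.8, 30.8 and 5.70 normalized counts. No other library had more than 4.27 for any of them. Of the same marker list Cd5l and Spic had at most 3.42, while Vcam1 had 699 to 5511 and Slc40a1 515 to 1361. In BM the Csf1r values were 4694, 2300.4 and 3159 in WT and 5388, 3111 and 1651 in Δβ. The Δβ libraries held both the highest and the lowest value, with a log2 difference of -0.10 and an interval of -1.47 to 1.27.

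Csf3r encodes the G-CSF receptor (chromosome 4 from 126024550 to 126044440 on the plus strand, 15 exons), and its promoter above holds the C/EBP motif. WT SP replicates had normalized counts of 1499.8, 2306 and 2135, and Δβ SP replicates of 1509.8, 1246 and 1073. The highest Δβ library lay just above the lowest WT library, and the other values were apart. By limma this was the receptor with an unadjusted p under 0.05 in SP. The log2 difference was -0.62 ± 0.26 (SE), with an interval of -1.19 to -0.05 and an adjusted p of 0.309 from limma. It did not rest on WT SP replicate 3 for its direction, being -0.56 without that library (adjusted p = 0.201, limma). Without WT SP replicate 1, the lowest WT library in SP, it was -0.81 (adjusted p = 0.442, limma). All 8 mature neutrophil markers were lower in Δβ SP, with a median log2 difference of -1.14, 2 of them at an unadjusted p under 0.05 (Ngp and Retnlg), against 14.9% of all tested genes, and 0 at an adjusted one, against 0.105%. Their sum was 61044 to 155386 in WT SP and 44447 to 60827 in Δβ SP, and its part in the Csf3r values was not tested. In BM, Csf3r had 1727, 1283 and 1819 in WT and 2224, 1550.1 and 1103 in Δβ, where the Δβ libraries held both the highest and the lowest value. The log2 difference in BM was -0.03, with an interval of -0.60 to 0.54. The test of the difference between organs gave -0.60 with an interval of -1.40 to 0.21 (adjusted p = 0.926, limma), so that a larger effect in SP than in BM was not shown.

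Csf2ra encodes the chain that binds GM-CSF (NM_009970, chromosome 19 from 61223957 to 61228429 on the minus strand, 12 exons). Its normalized counts were 7807, 6685 and 4610.4 in WT SP and 6641, 5201 and 5637 in Δβ SP. In BM they were 4387, 4734 and 5134 in WT and 4377, 4976 and 5104 in Δβ. The highest of the 12 values was 1.78 times the lowest, the smallest such span of the 10 receptors, and the intervals of the log2 difference were the narrowest of the 10, at -0.50 to 0.30 around -0.10 in SP and -0.38 to 0.42 around 0.02 in BM. Without WT SP replicate 3 the SP difference was -0.32 ± 0.14 (SE) with no overlap (adjusted p = 0.137, limma), and without WT SP replicate 1 it was 0.062.

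Csf2rb encodes the beta common chain and Csf2rb2 the IL-3 specific beta chain. They are neighbors on chromosome 15, Csf2rb from 78325752 to 78353847 on the plus strand and Csf2rb2 from 78282507 to 78305721 on the minus strand, with 14 exons each. They share sequence, since 18.9% of the 50-base windows of the Csf2rb transcript also occur in Csf2rb2, so the division of reads between them is uncertain. Csf2rb counts, normalized, were 5133, 3984 and 3029 in WT SP, 3471, 2660.4 and 2967 in Δβ SP, 2714, 3496 and 3786 in WT BM and 3752, 2952 and 2956 in Δβ BM. WT SP replicates 1 and 2 were above every other library. The log2 difference was -0.39 in SP, with an interval of -0.84 to 0.05 (adjusted p = 0.375, limma), and -0.58 ± 0.19 (SE) without WT SP replicate 3 (adjusted p = 0.0572, limma). It was -0.20 without WT SP replicate 1. Csf2rb2 had 1268, 1063 and 564 in WT SP and 828, 618 and 806 in Δβ SP, with a log2 difference of -0.29 (interval -0.91 to 0.32), and -0.64 ± 0.21 (SE) without WT SP replicate 3 (adjusted p = 0.0587, limma). It was -0.057 when WT SP replicate 1 was left out. Its BM values were 693, 740.1 and 907 in WT and 1034, 783 and 656 in Δβ. For both genes the BM values of WT and Δβ overlapped, with log2 differences of -0.04 (interval -0.49 to 0.40) for Csf2rb and 0.06 (interval -0.55 to 0.68) for Csf2rb2. The normalized counts of Csf2rb were 3.63 to 5.37 times those of Csf2rb2 in the 12 libraries.

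The proportion of the GM-CSF receptor chains was taken after the values were seen. The ratio of Csf2ra to Csf2rb normalized counts was 1.52, 1.68 and 1.52 in WT SP and 1.91, 1.95 and 1.90 in Δβ SP. All 3 Δβ SP libraries were above all 9 others, among which the highest was Δβ BM replicate 3 with 1.73. The difference in SP had an exact two-sided permutation p of 0.1, the smallest that 3 against 3 libraries can give, and an adjusted p of 0.9 over 16 such ratio comparisons by the same exact test. In BM the ratio was 1.62, 1.35 and 1.36 in WT and 1.17, 1.69 and 1.73 in Δβ. These overlapped (exact permutation p = 0.8).

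Il3ra encodes the chain that binds IL-3 (NM_008369, chromosome 14 from 14346275 to 14356011 on the plus strand, 12 exons). Its normalized counts were 193, 546 and 589 in WT SP, 357, 776 and 599 in Δβ SP, 446, 777 and 598 in WT BM and 289, 783 and 627 in Δβ BM. Replicate 1 was the lowest in each of the 4 groups. The log2 difference was 0.47 in SP, with an interval of -0.59 to 1.54, and -0.18 in BM, with an interval of -1.25 to 0.88. In SP it was 0.76 without WT SP replicate 3 and -0.044 without WT SP replicate 1.

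Kit encodes the receptor of stem cell factor (NM_021099, chromosome 5 from 75574916 to 75656722 on the plus strand, 21 exons). Normalized counts were 439, 562 and 1413 in WT SP, 450.3, 598 and 733 in Δβ SP, 802, 1063 and 842 in WT BM and 759, 879.6 and 1789.9 in Δβ BM. WT SP replicate 3 and Δβ BM replicate 3 were the highest. The log2 difference was -0.27 in SP (interval -1.20 to 0.65), turning to 0.23 without WT SP replicate 3, and 0.24 in BM (interval -0.68 to 1.17). The ratio of Csf1r to Kit normalized counts set these libraries furthest apart, at 37.9 in WT SP replicate 1, 14.3 in replicate 2, 1.92 in replicate 3 and 0.922 in Δβ BM replicate 3.

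Flt3 encodes the receptor of FLT3 ligand (NM_010229, chromosome 5 from 147330741 to 147400489 on the minus strand, 24 exons). Its normalized counts were 454, 608 and 183 in WT SP, 154, 634 and 642 in Δβ SP, 258, 952 and 517 in WT BM and 239, 786 and 385 in Δβ BM. Within each group the highest library had at least 3.29 times the lowest, and the groups covered much the same range. Δβ minus WT was 0.11 on the log2 scale in SP, with an interval of -1.41 to 1.63, and -0.27 in BM, with an interval of -1.79 to 1.25, the widest of the 10 receptors. Without WT SP replicate 3 the SP value was -0.40.

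**Figure D3:**
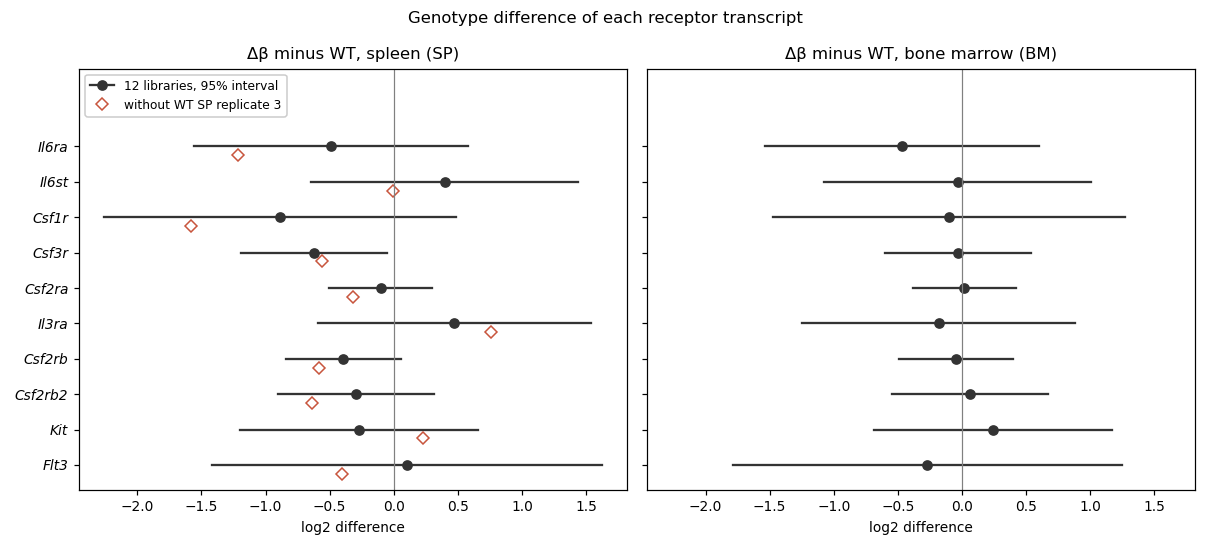
Log2 difference (Δβ minus WT) of each receptor in SP and in BM, with points for the fit of 12 libraries, lines for the 95% interval and open diamonds for the fit without WT SP replicate 3 in SP. In SP the interval of Csf3r alone leaves out 0 (-1.19 to -0.05), and the diamonds of Il6ra (-1.21) and Csf1r (-1.58) lie furthest to the left.

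When each SP library was averaged, on the log2 scale, with the BM library that carries its genotype and number, 0 of 10 receptors passed over both organs, against 0.148% of all tested genes. The largest differences were -0.49 for Csf1r (interval -1.61 to 0.63) and -0.48 for Il6ra (interval -1.28 to 0.32). Of the genotype by organ tests 0 of 10 passed, against 0% of all tested genes, and the values ran from -0.79 for Csf1r to 0.66 for Il3ra. At an unadjusted p under 0.05, 0 receptors passed in either, against 9.91% and 3.20% of all tested genes (limma). By edgeR and by DESeq2 on the recovered reads 0 of 10 receptors passed an adjusted p of 0.05 in any comparison. DESeq2 called 3.98% of all tested genes in SP, 0.322% in BM, 3.68% over both organs, 0.0261% for genotype by organ and 0.967% and 0.0174% between the organs in WT and Δβ. The shares by edgeR were 0.0349% in SP, 0.0697% in BM, 0.139% over both organs and 0% in the other comparisons.

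The organ comparison asked whether blasts in SP and BM carry different amounts of the receptors. In WT, 0 of 10 passed an adjusted p of 0.05, against 0% of all tested genes, and 0 had an unadjusted p under 0.05, against 8.27% (limma). All 10 had overlapping values, against 11.5% of all tested genes without overlap. The largest log2 difference (SP minus BM) was 1.14 for Csf1r, with an interval of -0.24 to 2.51, followed by -0.58 for Il3ra, with an interval of -1.65 to 0.49 and a value of -0.87 without WT SP replicate 3. Csf2ra was at 0.39, with an interval of -0.01 to 0.79. Without WT SP replicate 3, Csf2ra was higher in SP by 0.61 ± 0.14 (SE), or 1.52 times (adjusted p = 0.0395, limma), the single receptor of 10 to pass among 598 genes (5.21%). In the same refit Csf1r was at 1.83 (adjusted p = 0.0687, limma), Il6ra at 0.86 (adjusted p = 0.0640, limma) Csf2rb2 at 0.58 (adjusted p = 0.115, limma), Kit at -0.85 (adjusted p = 0.145, limma) and Csf2rb at 0.45 (adjusted p = 0.162, limma). With Csf2ra these were the 6 of 10 receptors without overlap, against 48.1% of the tested genes. The values were 0.53 for Csf1r, 0.23 for Csf2ra, -0.33 for Il6ra and -0.0073 for Kit without WT SP replicate 1 in its place, and 0 of 10 receptors passed. In that refit Il2rg, a pathway gene taken up below, had an unadjusted p of 0.00077 and an adjusted one of 0.920 (limma). A 0 there says little about the receptors.

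In Δβ blasts 0 of 10 receptors passed in the organ comparison, against 0% of all tested genes, and 0 had an unadjusted p under 0.05, against 1.77% (limma). With the replicate number as a block, which pairs the libraries in Δβ, 1 of 10 had an unadjusted p under 0.05, Kit, against 2.87% of all tested genes, and 0 passed an adjusted p of 0.05 (limma). The values of 2 receptors did not overlap between the organs, against 7.42% of all tested genes. Kit had lower values in all 3 SP libraries than in any BM library, at a log2 difference of -0.86 with an interval of -1.79 to 0.06 (adjusted p = 0.99996, limma). Csf2ra had higher values in all 3 SP libraries than in any BM library, at 0.27 with an interval of -0.13 to 0.67. Organ took 42.7% of the sum of squares of Csf2ra and 26.9% of that of Kit on the log2 scale, against a median of 5.15% over all tested genes.

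For several receptors the replicate number went with more variation than genotype or organ did, though it has more levels than either, which alone raises its share. Its share of the sum of squares was 76.9% for Il3ra, 64.2% for Il6st, 58.0% for Flt3, 49.3% for Csf1r, 42.5% for Kit and 40.3% for Il6ra, against a median of 16.7% over all tested genes. Genotype took 20.1% for Csf3r, 17.3% for Csf2rb and 15.3% for Il6ra, against a median of 8.97%. Il6ra and Csf1r were the highest in replicate 1 in all 4 groups, as were 5.60% of all tested genes, and Il3ra and Kit were the lowest in replicate 1 in all 4 groups, as were 3.25%. In Δβ, same-numbered libraries of SP and BM deviated together across genes (r of 0.608 to 0.664), and in WT they did not (-0.24 to -0.01). What the numbers stand for is not given in the labels.

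**Figure D4:**
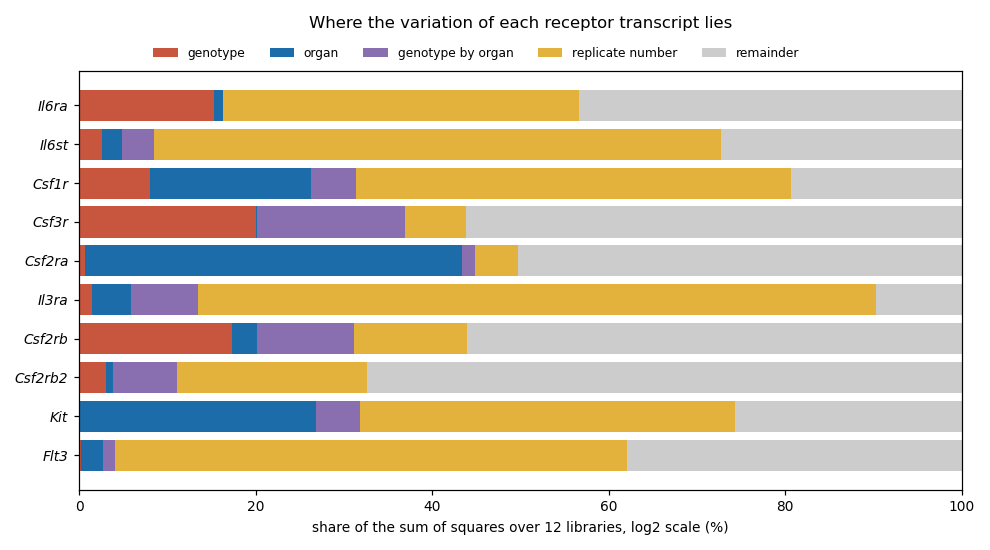
Share of the sum of squares over the 12 libraries (%, log2 scale) that goes with genotype, organ, their interaction, the replicate number and the remainder, for each receptor. The replicate number takes 76.9% for Il3ra and 64.2% for Il6st, organ takes 42.7% for Csf2ra, and genotype takes at most 20.1%, for Csf3r.

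The genes whose 12-library profiles lay nearest to each receptor were found by the root mean square difference of standardized log2 profiles, in which the median tested gene had a distance of 1.33 to 1.37. Nearest to Csf1r was Cyth4, at 0.095, followed by Il10ra, the IL-10 receptor alpha chain, at 0.193 and Snap29 at 0.214. Il6ra had Fam134c, Lnpep and Rin2 at 0.158 to 0.170. Csf2rb had Inpp5k at 0.254 and Lats2 at 0.264, and Csf2rb2 had Coq10b, the cell cycle inhibitor Cdkn1b and Abcc3 at 0.213 to 0.231. Csf2ra had Tpgs1, the myeloid transcription factor Cebpb and Rnf31 at 0.373 to 0.388, Csf3r had Igsf6, Naa60 and Nqo2 at 0.348 to 0.395, and Il6st had Fam91a1, Atf7 and P2rx7 at 0.306 to 0.430. Il3ra had 2410016O06Rik, Slc22a3 and Adgrl4 at 0.346 to 0.414 and Kit had Abcb10, Pgm2 and Cerk at 0.300 to 0.396. The neighbors of Flt3 were the most distant, Klhl41, B630019K06Rik and the progenitor marker Cd34 at 0.474 to 0.520. Among the receptors themselves the nearest pair was Csf2rb with Csf2rb2, at 0.470, followed by Il6ra with Csf2rb2 at 0.501 and Il6ra with Csf1r at 0.528. These profiles share libraries and their size factors.

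Of 57 other genes of these pathways, 41 were tested and 0 passed an adjusted p of 0.05 in any comparison (limma). Without WT SP replicate 3, a refit of these genes added after the data were seen, 17 of 41 passed in SP, 15 lower and 2 higher in Δβ, against 16.4% of all tested genes, and 10 of 41 passed between the organs in WT, 8 higher and 2 lower in SP, against 5.21%. In neither comparison did any of the 41 pass (0 of 41) without WT SP replicate 1 in its place. In that refit Cebpa in SP had an unadjusted p of 0.013 and an adjusted one of 0.442 (limma). Il2rg between the organs had 0.00077 and 0.920 (limma), so a 0 there says little about these genes. Most ligands were near absent from the blasts: Il6, Il11, Il34, Csf2, Csf3, Il3, Il5 and Kitl had at most 2.28 normalized counts in any library. Of the 4 ligands tested, Osm, whose receptor complexes contain gp130, had 744, 737 and 212 in WT SP and 160.4, 244 and 169.7 in Δβ SP, with a log2 difference of -1.37 (adjusted p = 0.351, limma), and -1.97 without WT SP replicate 3 (adjusted p = 0.0531, limma). Csf1, the ligand of Csf1r, had 304, 172 and 43.6 in WT SP and 105, 165 and 88.6 in Δβ SP. WT SP replicate 3 lay under the Δβ values for Csf1 and within them for Osm. The ligand genes Flt3l and Lif had log2 differences of 0.02 and -1.16 in SP, and the values of all 4 were positive in BM, at most 0.63.

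Of the 11 other receptors of these families 4 were tested, and 1 had an unadjusted p under 0.05 in SP, against 14.9% of all tested genes. It was Il2rg, the common gamma chain, at -0.59 (adjusted p = 0.276, limma). Normalized counts were 819, 552 and 691 in WT SP and 422, 519 and 419.6 in Δβ SP. The Δβ libraries were all under the WT ones, and 17.3% of all tested genes likewise had no overlap in SP. Of 14 kinases, adaptors and STATs 12 had a negative log2 difference in SP (median -0.31), against 51.9% of all tested genes (median -0.01). In SP 3 of 14 (Jak1, Shc1 and Syk) had an unadjusted p under 0.05 by limma, against 14.9% of all tested genes. In BM 7 of 14 had a negative difference (median -0.0041), against 54.7% (median -0.02). In the refit without WT SP replicate 3, 12 of 14 were negative in SP and 6 passed, against 16.4% of all tested genes. The 6 were lower in Δβ, among them Jak1, Jak2, Stat5b and Syk. Of 11 inhibitors tested 10 had a negative difference in SP (median -0.32), against the same 51.9% of all tested genes. An unadjusted p under 0.05 was reached by 2 of 11 (Socs3 and the sheddase Adam10), against 14.9% of all tested genes. In the same refit 8 of 11 passed, against 16.4%, all lower in Δβ, among them Socs3, Adam10, Adam17 and Ptpn6. Without WT SP replicate 1 in place of replicate 3, 11 of 14 and 9 of 11 were negative, with medians of -0.16 and -0.21. Of these lists 0 of 14 and 0 of 11 then passed, in a refit where Socs3 had an unadjusted p of 0.020 and an adjusted one of 0.472 (limma).

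Socs3, the feedback inhibitor that binds gp130 and the G-CSF receptor, was counted at 1442, 321 and 175 (normalized) in WT SP and 83.7, 66.1 and 52.3 in Δβ SP. All WT SP libraries, replicate 3 included, were above all Δβ SP libraries, where 17.3% of all tested genes had no overlap. Its log2 difference was -2.69 ± 0.77 (SE; adjusted p = 0.218, limma), -3.34 without WT SP replicate 3 (adjusted p = 0.0206, limma) and -1.82 without WT SP replicate 1 (adjusted p = 0.472, limma). In BM it had 32.7, 24.8 and 150.1 in WT and 137, 71.3 and 79.8 in Δβ, which overlapped, with a log2 difference of 0.87.

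Of the 8 transcription factors known to control these receptors 4 were higher and 4 lower in Δβ SP (median log2 difference -0.06), and 2 had an unadjusted p under 0.05, against 14.9% of all tested genes. Spi1, which encodes PU.1, was at 9726, 7918 and 5839 normalized counts in WT SP and 5011, 4348 and 5135 in Δβ SP, with a log2 difference of -0.67 ± 0.19 (SE; adjusted p = 0.218, limma). Cebpa had 1639, 1487 and 1579 in WT SP and 1368, 785 and 718 in Δβ SP, with -0.77 ± 0.21 (SE; adjusted p = 0.218, limma). For both factors the genotypes did not overlap in SP, as for 17.3% of all tested genes, with WT SP replicate 3 among the WT values. Without that library the SP differences were -0.86 for Spi1 (adjusted p = 0.0150, limma) and -0.77 for Cebpa (adjusted p = 0.0554, limma). The progenitor factor Myb and the repressor Gfi1 were then higher in Δβ, at 0.99 (adjusted p = 0.0266, limma) and 1.15 (adjusted p = 0.0496, limma). Both calls rested on leaving out that library, which had the highest WT SP values of Myb (11400) and Gfi1 (5810). With all 12 libraries Myb was at 0.48 and Gfi1 at 0.34. Without WT SP replicate 1 in its place, Spi1 was at -0.50, Cebpa at -0.74, Myb at -0.015 and Gfi1 at -0.43, and 0 of 8 passed. In that refit Cebpa had an unadjusted p of 0.013 and an adjusted one of 0.442 (limma). The log2 differences in BM were -0.16 for Spi1 and -0.41 for Cebpa. Over the 41 genes tested the unadjusted calls in SP were 8 lower and 0 higher in Δβ, against 14.9% of all tested genes (1028 lower and 680 higher), and those of the organ comparison in WT were 9 higher and 0 lower in SP, against 8.27% (500 higher and 449 lower).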

How the data were processed

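The authors sequenced poly-A RNA of Venus+ blasts, 3 libraries per genotype and organ, which were grouped by the labels. The submitters' processing notes name FastQC, STAR, featureCounts, DESeq2 and GRCm38/mm10, with no versions. Deposited values are a signal, the gene's count divided by the size factor of its library. Every value was a whole multiple (within 0.001) of that of 1 read, 0.775 to 1.168, and reads were recovered from it. The header lacked a separator, so columns were named from the right. A further 6 columns of no labelled sample were left out.

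Genes with a mean of at least 10 (11476) were tested with limma 3.58.1 (R 4.3.3, trend) on log2(normalized count + 1), with a mean per group and Benjamini-Hochberg adjustment. For the test over both organs, same-numbered libraries of a genotype were averaged on the log2 scale. Alternatives were pseudocounts of 0.25 and 4, no filter, a minimum mean of 50, TMM rescaling, edgeR 4.0.16 (quasi-likelihood) and DESeq2 1.42.0 on recovered reads, the replicate block, the organ alone, 12 separate units and each library left out. Over both organs, the SP and BM libraries of a genotype and number were left out together. Named genes were the 10 receptors, the 3 nearest profiles of each, and pathway genes that passed, were ligands or partner a receptor. Other genes named were chosen after their values were seen. A few marker and nearest-profile results are not reported here. Members, gene lists and marker lists were chosen with earlier results of these data known. Positions are GENCODE M21 on GRCm38, and promoters are RefSeq, 250 bases. Steps were tested on simulated data.

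Same-numbered SP and BM libraries correlated in their deviations from the group mean at 0.664, 0.608 and 0.634 in Δβ, which pairs them, at -0.009, -0.039 and -0.237 in WT, and between genotypes at 0.202, -0.166 and -0.013 in SP and 0.128, -0.084 and -0.089 in BM, which does not. The lists of further cell types gave 0 adjusted calls. Their sums of normalized counts over the 12 libraries were 1372 to 6722 for red pulp macrophages, 139 to 247 for mast cells and basophils, 4.65 to 14.9 for erythroid cells, 29.8 to 68.4 for megakaryocytes, 0 to 113 for T and NK cells and 788 to 2524 for stroma and endothelium. Vcam1 and Slc40a1 made up nearly all of the first sum and Pecam1 of the last.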

Additional observations from a re-analysis of the deposited data

How the results depend on the processing

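In refits 1 library was left out, or, over both organs, the SP and BM libraries of 1 genotype and number together. Of the 60 receptor comparisons, 33 turned sign in such refits, and 2 passed an adjusted p of 0.05 (limma). These were Il6ra in SP (log2 difference -1.21) and Csf2ra between the organs in WT (0.61), both without WT SP replicate 3. The cause was not tested. The median SE of a receptor's log2 difference within an organ was 0.45, which limits what 3 libraries a group could show.

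For Δβ minus WT in SP, 12 genes passed, and 1 with a pseudocount of 0.25, 5 without a filter, 2 with a minimum mean of 50, 3 after TMM rescaling, 4 by edgeR, 457 by DESeq2 and 2 with SP fitted alone. In BM 8 passed, and 37 by DESeq2 and 3 with BM fitted alone. Over both organs 17 passed, and 422 by DESeq2 and 60 with 12 separate units. DESeq2 called 111 genes between the organs in WT, 2 in Δβ and 3 for genotype by organ, where limma called 0 and edgeR 0 and where 949, 203 and 367 had an unadjusted p under 0.05 by limma. With the replicate number as a block, 2 genes passed in SP, 5 in BM and 55 over both organs, and no receptor call changed; in SP and BM genotypes the numbers do not pair the samples. Leaving out 1 library gave 1 to 1886 genes in SP, 1 to 13 in BM and 0 to 598 between the organs in WT. It gave 0 to 1 receptors in SP and between the organs in WT. The upper ends in SP and in WT were without WT SP replicate 3. Over both organs, leaving out a same-numbered SP and BM library together gave 2 to 27 genes.

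Other settings turned the sign of 4 receptor comparisons whose values were near 0: Csf1r in BM (0.00409 by edgeR), Csf3r in BM (0.020 by edgeR, 0.010 by DESeq2), Kit over both organs (0.00586 after TMM rescaling, 0.040 by edgeR, 0.041 by DESeq2) and Flt3 between the organs in Δβ (0.028 by edgeR, 0.033 by DESeq2). Leaving out 1 library at a time, the log2 differences for Δβ minus WT in SP that turned sign ran from -0.0057 to 0.82 for Il6st, from -0.32 to 0.062 for Csf2ra, from -0.044 to 0.78 for Il3ra, from -0.61 to 0.23 for Kit and from -0.40 to 0.79 for Flt3. Those of Δβ minus WT in BM ran from -0.37 to 0.17 for Il6st, from -0.52 to 0.34 for Csf1r, from -0.036 to 0.088 for Csf2ra, from -0.19 to 0.055 for Csf2rb, from -0.11 to 0.22 for Csf2rb2, from -0.28 to 0.22 for Csf3r, from -0.47 to 0.24 for Il3ra, from -0.13 to 0.49 for Kit and from -0.75 to 0.19 for Flt3. Those of Δβ minus WT over both organs, where a same-numbered SP and BM library were left out together, ran from -0.18 to 0.43 for Il6st, from -0.12 to 0.013 for Csf2ra, from -0.21 to 0.51 for Il3ra, from -0.29 to 0.22 for Kit and from -0.48 to 0.46 for Flt3. Those of SP minus BM in WT ran from -0.33 to 0.86 for Il6ra, from -0.81 to 0.013 for Il6st, from -0.00055 to 0.58 for Csf2rb2 and from -0.92 to 0.064 for Flt3. Those of SP minus BM in Δβ ran from -0.084 to 0.31 for Il6ra, from -0.35 to 0.38 for Il6st, from -0.087 to 0.77 for Csf1r, from -0.19 to 0.029 for Csf2rb, from -0.27 to 0.055 for Csf2rb2, from -0.35 to 0.39 for Il3ra and from -0.47 to 0.61 for Flt3. Those of genotype by organ ran from -0.75 to 0.44 for Il6ra, from -0.34 to 0.042 for Csf2ra and from -0.13 to 1.05 for Flt3.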

Other observations

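Δβ BM replicate 3, the library with the highest Kit value (1789.9 normalized counts), also had the highest values of Gata2, a factor of progenitors and mast cells, at 655 against at most 237 in the other 11 libraries, and of Pdgfrb, a receptor tyrosine kinase related to Kit and Csf1r, at 529 against at most 232. Of the 6 mast cell and basophil markers, Cpa3 was the highest of the 12 libraries there, at 75.6 against 27.1 to 71.0, and Mcpt8 the lowest, at 20.7 against 26.5 to 102. The sum of the 6 was 194 in that library and 139 to 247 over all 12. The library was singled out after its values were seen.

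Il2rg transcripts were counted in all 12 libraries, at 249 to 819 normalized counts, while the NSG host carries a disrupted Il2rg. In WT it was higher in SP than in BM in all libraries, with a log2 difference of 1.24 (adjusted p = 0.357, limma).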
